A study of Mus musculus with 32 samples.

Results

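The comparison described here is between LSK cells of 2 kinds of control mice in a study of the histone acetyltransferase HBO1 (KAT7): 4 Mx1Cre control libraries against 4 CreER control libraries, chosen by their sample labels, 8 of the 32 RNA-seq libraries in the series. LSK cells are the lineage-negative, Sca-1-positive, Kit-positive fraction of bone marrow that holds the blood stem cells and the earliest multipotent progenitors. The Mx1Cre controls were Hbo1fl/+ mice with the Mx1-Cre transgene, treated with polyIC, a synthetic double-stranded RNA that induces interferon. The CreER controls were Hbo1fl/+ mice with Cre fused to a mutated oestrogen receptor at the Rosa locus (RosaCreERT2), treated with tamoxifen. All 8 were adult C57BL/6 mice and, per their titles, had lost 1 of the 2 Hbo1 alleles, although the protocol speaks of wild type Cre-expressing controls. The Mx1Cre controls were 2 females and 2 males, and the CreER controls were 3 females and 1 male. The same contrast was also taken in 2 further pairs of groups: LSK cells of 4 Mx1Cre and 4 CreER mice with both Hbo1 alleles deleted (Hbo1fl/fl, called knockouts below), and progenitor cells of the same 8 control mice. The Cre line, the inducing agent and the mouse cohort changed together, so their parts in any difference cannot be told apart. Neither doses nor the time from induction to cell sorting are stated in the labels.

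Mx1-Cre is driven by the promoter of Mx1, an interferon-induced antiviral gene, so induction goes through an interferon response that reaches many cell types. Type I interferon binds the IFNAR1 and IFNAR2 receptor pair, and a complex of transcription factors that includes STAT2 and IRF9 then binds interferon-stimulated response elements in front of its target genes. Blood stem cells respond to interferon themselves, and Sca-1 (Ly6a), one of the 2 proteins by which LSK cells are sorted, is encoded by an interferon-inducible gene. CreERT2 is present in the cell before induction and enters the nucleus when it binds a tamoxifen metabolite.

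The 4 Mx1Cre control libraries held 11921076 to 14389373 counts and the 4 CreER control libraries 8503104 to 12487315, over 27179 genes. After a filter on low counts, 14102 genes were tested in a fit of all 16 LSK libraries, and a gene was called when its Benjamini-Hochberg adjusted p in edgeR's quasi-likelihood test was under 0.05. The level of a gene in a library is given in CPM (the count divided by the library's TMM-scaled total, per 1000000 counts). Every fold change is the log2 ratio of the Mx1Cre mean to the CreER mean, so that a negative value is lower in Mx1Cre. Its standard error (SE) was derived from the test, as the size of the log2 fold change divided by the square root of the F statistic. The sex-linked genes of all 8 control libraries matched their labels, while those of 2 LSK libraries of CreER knockouts did not (library 2, labelled female, and library 3, labelled male). Where sex was used as a covariate, it was taken from the labels, with these 2 libraries included as labelled. Library 3 of the CreER controls stood apart from the other 3 in many lineage genes. Within the Mx1Cre controls, libraries 1 and 2 came from females and libraries 3 and 4 from males, and several late neutrophil and B cell genes split along that line.

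The labelled cell type was checked against the genes of the sort. Kit, the stem cell factor receptor on which LSK cells are gated, had 465, 480.4, 449 and 471 CPM in the Mx1Cre controls, against 441, 445, 387 and 416 CPM in the CreER controls, and did not pass the test (log2 fold change 0.14 ± 0.10 SE, adjusted p = 0.344). Cd34 and Flt3, expressed on multipotent progenitors, also missed the threshold, at log2 fold changes of -0.17 ± 0.13 and 0.18 ± 0.19. Several genes of mature lineages used in depletion were higher in the Mx1Cre controls. Itgam, the myeloid antigen Mac-1, had 71.0, 76.8, 66.1 and 111 CPM in the Mx1Cre controls, against 35.9, 24.6, 22 and 26.8 CPM in the CreER controls. Ly6g, a neutrophil antigen, had 0.683, 0.896, 5.43 and 8.07 CPM in the Mx1Cre controls, against 0.229, 0.0973, 0.982 and 0.935 CPM in the CreER controls, so its groups overlapped, and its call was lost on leaving out any of 6 libraries (CreER 1 to 4, Mx1Cre 3 and 4), with log2 fold changes of 1.99 to 3.08. Of 14 tested sort gate genes, 5 were higher in the Mx1Cre controls (Itgam, Fcgr3, Ptprc and Ly6g among them) and 2 were lower (Ly6a and Slamf1). In bulk RNA, fewer cells of a type and less RNA per cell cannot be told apart.

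Of the 14102 genes, 3054 were called (21.7%), 1643 higher in the Mx1Cre controls (11.7%) and 1411 lower (10%). The 4 libraries of the 2 groups did not overlap at 4004 genes (28.4%), with all Mx1Cre values above all CreER values at 2063 (14.6%) and below at 1941 (13.8%). The median log2 fold change over all genes was 3e-04. These shares are the background against which the gene lists below are to be read.

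The lists with the largest shares called in 1 direction were the interferon-stimulated genes, which were almost all lower in the Mx1Cre controls, and the neutrophil granule genes, which were all higher. Megakaryocyte genes, long-term stem cell markers and p53 target genes were mostly lower where they were called, and monocyte genes mostly higher.

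**Figure D1:**
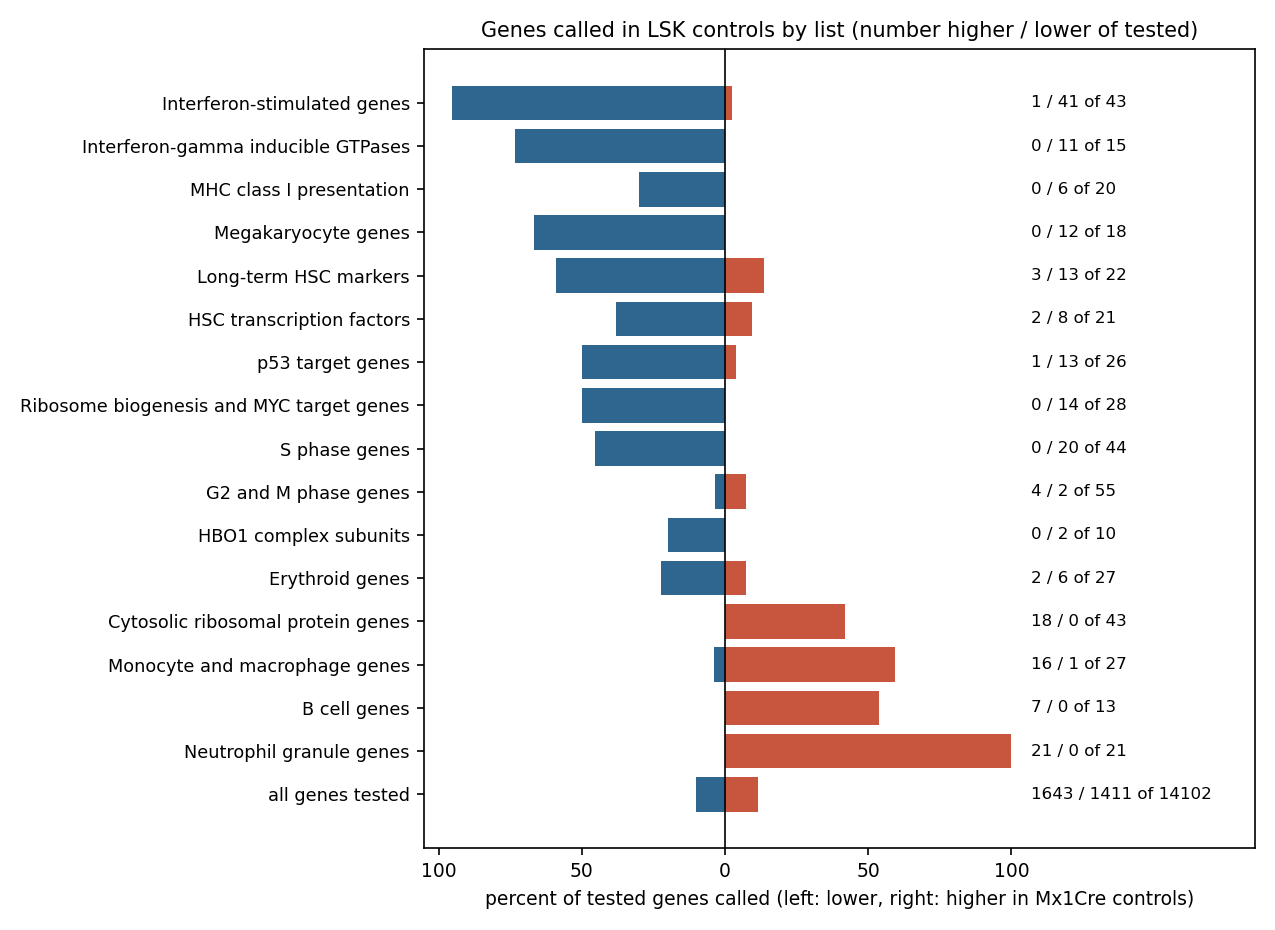
Share of the tested members of 16 gene lists, and of all genes tested, that were called in LSK controls; bars to the left are genes lower and bars to the right genes higher in Mx1Cre controls than in CreER controls, in percent. Interferon-stimulated genes run to the left (1 higher and 41 lower of 43) and neutrophil granule genes to the right (21 higher of 21), beside 1643 higher and 1411 lower of 14102 for all genes.

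The promoters of 6 interferon-inducible genes that fell, 1 of them (Irf7) without a match, and of Ifitm1, the interferon-stimulated gene that was higher, are printed to show where the letters of the interferon response element stand. The sequences are from RefSeq on GRCm38.p6, 250 bases before to 50 bases after the gene start, 5′ to 3′ on the gene's strand, and capitals mark matches to GAAA, any 2 bases, then GAAA again (the core of the interferon-stimulated response element), or to its reverse complement; matches may overlap. Isg15 lies at chr4:156200769-156201068 (minus strand), Ifit1 at chr19:34640639-34640938 (plus), Ifit3 at chr19:34583279-34583578 (plus), Rsad2 at chr12:26456403-26456702 (minus), Igtp at chr11:58199306-58199605 (plus), Irf7 at chr7:141266375-141266674 (minus) and Ifitm1 at chr7:140967826-140968125 (plus).
Isg15: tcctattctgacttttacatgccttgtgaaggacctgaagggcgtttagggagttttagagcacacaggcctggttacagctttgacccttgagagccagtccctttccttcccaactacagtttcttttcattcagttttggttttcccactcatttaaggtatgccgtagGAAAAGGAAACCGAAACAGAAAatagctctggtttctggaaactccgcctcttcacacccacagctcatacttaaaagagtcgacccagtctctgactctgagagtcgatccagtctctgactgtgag
Ifit1: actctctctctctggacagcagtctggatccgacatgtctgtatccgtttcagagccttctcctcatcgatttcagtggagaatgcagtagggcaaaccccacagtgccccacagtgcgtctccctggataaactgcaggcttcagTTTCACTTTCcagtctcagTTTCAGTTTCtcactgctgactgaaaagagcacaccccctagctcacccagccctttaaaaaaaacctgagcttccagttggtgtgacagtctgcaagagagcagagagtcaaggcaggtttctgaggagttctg
Ifit3: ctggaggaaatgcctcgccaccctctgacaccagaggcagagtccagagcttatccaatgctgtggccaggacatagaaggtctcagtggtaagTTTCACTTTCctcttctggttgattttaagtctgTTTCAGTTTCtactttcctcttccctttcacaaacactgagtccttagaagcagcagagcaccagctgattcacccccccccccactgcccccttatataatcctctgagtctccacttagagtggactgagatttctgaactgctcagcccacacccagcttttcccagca
Rsad2: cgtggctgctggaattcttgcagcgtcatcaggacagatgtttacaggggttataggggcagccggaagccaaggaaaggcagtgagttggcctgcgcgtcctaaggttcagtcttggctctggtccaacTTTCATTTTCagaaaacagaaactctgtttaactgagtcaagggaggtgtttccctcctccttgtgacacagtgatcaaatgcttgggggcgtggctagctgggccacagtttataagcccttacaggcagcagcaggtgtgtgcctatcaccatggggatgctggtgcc
Igtp: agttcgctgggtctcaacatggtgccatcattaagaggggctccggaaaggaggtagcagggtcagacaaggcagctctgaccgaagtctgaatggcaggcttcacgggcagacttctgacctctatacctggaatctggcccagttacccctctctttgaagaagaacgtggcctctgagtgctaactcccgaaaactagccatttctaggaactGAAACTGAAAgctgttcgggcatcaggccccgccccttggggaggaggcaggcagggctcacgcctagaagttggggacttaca
Irf7: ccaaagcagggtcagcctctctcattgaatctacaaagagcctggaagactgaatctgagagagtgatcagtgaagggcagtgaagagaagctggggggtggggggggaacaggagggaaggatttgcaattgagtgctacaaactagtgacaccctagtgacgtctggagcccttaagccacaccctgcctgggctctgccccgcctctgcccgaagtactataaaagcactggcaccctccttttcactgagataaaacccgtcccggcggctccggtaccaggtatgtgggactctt
Ifitm1: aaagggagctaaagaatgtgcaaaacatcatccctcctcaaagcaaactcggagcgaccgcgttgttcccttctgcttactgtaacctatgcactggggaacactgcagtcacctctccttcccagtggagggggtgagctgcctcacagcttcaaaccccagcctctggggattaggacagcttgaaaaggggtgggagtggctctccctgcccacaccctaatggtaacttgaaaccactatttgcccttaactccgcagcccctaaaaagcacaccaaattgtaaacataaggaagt

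Isg15 held 3 overlapping matches, Ifit1 and Ifit3 held 2 each, Rsad2 and Igtp held 1 each, and the windows of Irf7, which fell by 4.39 on the log2 scale, and of Ifitm1 held none. Other genes with large falls had no match either, among them Ifi44 (-3.67) and Oasl2 (-3.40). Of the 32 tested interferon-stimulated genes with a promoter in the table, 16 (50%) had a match, as had all 9 of the interferon-gamma inducible GTPase genes in the table. Over the 10394 tested genes in the table, 399 (3.84%) had a match. Among all genes called lower in the Mx1Cre controls and in the table, 96 of 1004 (9.56%) had a match, and among those called higher 42 of 1204 (3.49%). The element is one of the features by which interferon genes are known, so these shares describe the lists, and a match is not a measured binding site.

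Interferon-stimulated genes were nearly all lower. Of 43 tested, 41 were lower in the Mx1Cre controls (95.3%), 1 was higher and 1 was not called, with a median log2 fold change of -2.11. At all 41 genes called lower the 4 Mx1Cre libraries lay below the 4 CreER libraries. Summed over the 44 listed genes, the level was 2663, 2786, 2588 and 2872 CPM in the Mx1Cre controls, against 8257, 5297, 8573 and 6172 CPM in the CreER controls. The Mx1Cre controls were close to each other, and the CreER controls were more spread, with libraries 1 and 3 highest. The summed neutrophil granule genes described below differed between the same groups, at 21200 to 23200 CPM in the Mx1Cre controls against 5480 to 12100 CPM in the CreER controls, and their part in the interferon genes, and in each list below, was not tested.

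Several effector genes of the antiviral response had low levels in the Mx1Cre controls, and Ifit3 had the lowest of those given here. Ifit1 (Entrez 15957), which binds viral RNA that lacks a self cap, had 5.16, 4.24, 2.09 and 3.69 CPM in the Mx1Cre controls, against 151, 62.4, 156 and 82.4 CPM in the CreER controls (log2 fold change -4.88 ± 0.39 SE, adjusted p = 2.53e-07). Ifit3, its partner, had 1.29, 0.489, 0.585 and 0.547 CPM in the Mx1Cre controls, against 59.5, 25.6, 80.4 and 32.6 CPM in the CreER controls (-6.06 ± 0.44, adjusted p = 1.18e-07). For both genes the 2 groups were far apart, and CreER library 2 was the lowest of its group. Isg15 (Entrez 100038882), a ubiquitin-like modifier, had 7.06, 3.18, 3.59 and 5.74 CPM in the Mx1Cre controls, against 150.2, 62.1, 182 and 85.1 CPM in the CreER controls (-4.60 ± 0.37). Rsad2 (viperin), which makes an antiviral nucleotide, had 8.42, 6.84, 3.34 and 10.1 CPM in the Mx1Cre controls, against 198, 70.3, 157 and 93.6 CPM in the CreER controls (-4.16 ± 0.36). Usp18, which removes ISG15 from proteins and dampens the receptor, was lower by the same pattern (-3.74 ± 0.28), as were the 2′-5′ oligoadenylate synthetase Oas3 (-3.66 ± 0.26) and the dynamin-like GTPases Mx1 (-3.80 ± 0.32) and Mx2 (-3.36 ± 0.33). Mx1 is the gene whose promoter drives Cre in the Mx1Cre mice, and it had 5.61, 5.46, 5.18 and 6.29 CPM in them, against 91.8, 42.0, 117 and 64.8 CPM in the CreER controls. Smaller falls with little spread were seen at Lgals3bp (-1.67 ± 0.10), a secreted glycoprotein, and Bst2 (tetherin; -1.92 ± 0.18).

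Sensors and transcription factors of the pathway were lower too. Irf7 (Entrez 54123), the factor that amplifies type I interferon production, had 15.4, 14.6, 10.9 and 19.7 CPM in the Mx1Cre controls, against 423, 217, 365 and 273 CPM in the CreER controls (-4.39 ± 0.25, adjusted p = 1.02e-08). The cytosolic RNA sensors Dhx58 (-2.66 ± 0.20), Ddx58 (RIG-I; -2.43 ± 0.23) and Ifih1 (MDA5, the sensor of long double-stranded RNA such as polyIC; -1.67 ± 0.16) all fell, and so did the nucleic acid sensor Zbp1 (-3.95 ± 0.34). Tlr3, the endosomal receptor for double-stranded RNA, had under 2 CPM in each Mx1Cre library (-1.62 ± 0.40). Stat2 and Irf9, of the signalling complex, fell by less, by 0.86 and 0.85 on the log2 scale. The feedback inhibitor Socs1 was lower as well (-1.24 ± 0.26), and the chemokine gene Cxcl10 had 1.52, 0.896, 1.00 and 1.98 CPM in the Mx1Cre controls, against 64.9, 16.7, 58.6 and 30.7 CPM in the CreER controls (-4.95 ± 0.39).

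The receptors moved the other way. Ifnar1 had 90.7, 97.9, 103 and 109 CPM in the Mx1Cre controls, against 74.9, 76.4, 72.9 and 79.6 CPM in the CreER controls (0.40 ± 0.09, adjusted p = 0.00562). Ifnar2 (0.51 ± 0.07), Ifngr1 (0.87 ± 0.16) and Ifngr2 (0.69 ± 0.13) were higher as well, and for all 4 receptor genes every Mx1Cre library lay above every CreER library. Of the 23 genes listed for interferon and double-stranded RNA signalling, 5 were higher, these 4 among them, and 9 were lower. Ifitm1, a membrane restriction factor that is also a stem cell marker, was the one interferon-stimulated gene called higher, with 72.8, 84.4, 145 and 141 CPM in the Mx1Cre controls, against 70.4, 56.1, 85.7 and 68.0 CPM in the CreER controls (0.66 ± 0.21, adjusted p = 0.0287). Its groups overlapped, its 2 male Mx1Cre libraries were the highest, and it lost its call with sex as a covariate (log2 0.52) and without any 1 of CreER libraries 1, 2 and 4 and Mx1Cre libraries 3 and 4 (0.51 to 0.67). Ly6e, the one tested gene without a call, had 1071 to 1179 CPM in the Mx1Cre controls, against 1111 to 1885 CPM in the CreER controls (-0.36 ± 0.13, adjusted p = 0.0629), and it gained a call without CreER library 2 or 4 (-0.47 and -0.42).

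**Figure D2:**
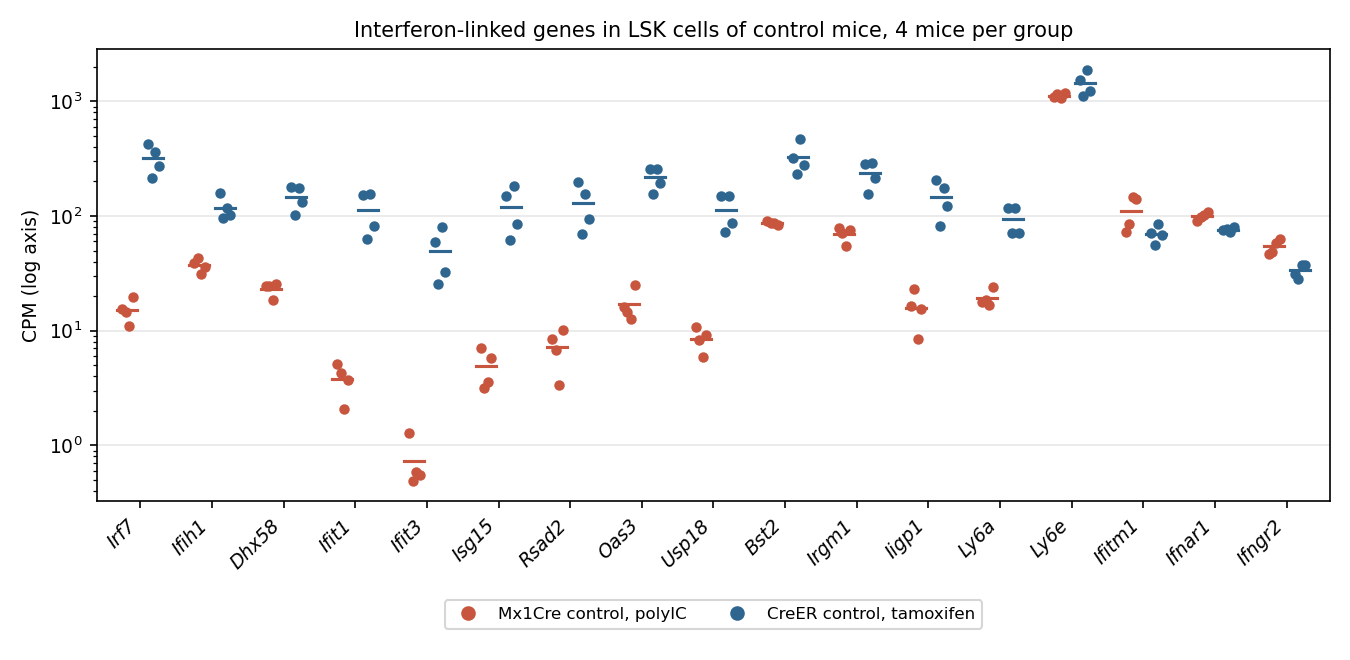
CPM (log axis) of 17 interferon-linked genes in LSK cells, 4 Mx1Cre controls at the left and 4 CreER controls at the right of each gene; points are libraries and bars are means. From Irf7 to Ly6a every Mx1Cre point lies below every CreER point, Ly6e and Ifitm1 overlap, and Ifnar1 and Ifngr2 lie above.

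Ly6a, which encodes Sca-1, had 17.8, 18.3, 16.9 and 23.8 CPM in the Mx1Cre controls, against 118, 70.8, 116 and 71.0 CPM in the CreER controls (-2.29 ± 0.25, adjusted p = 7.45e-06). The sort used the protein, and the part of this difference in which cells entered the gate was not tested. In the progenitors of the same mice the log2 difference of Ly6a was -0.71 and missed the threshold (adjusted p = 0.0737).

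Genes more typical of interferon gamma were lower where called. Of 15 tested interferon-gamma inducible GTPase genes, which attack vacuoles of intracellular pathogens, 11 were lower (73.3%), with a median of -1.75, and the other 4, all Gbp genes, did not pass the test. Irgm1 had 79.1, 70.6, 54.8 and 75.3 CPM in the Mx1Cre controls, against 283, 156, 289 and 213 CPM in the CreER controls (-1.75 ± 0.18). Iigp1 (-3.21 ± 0.38), Tgtp2 (-2.18 ± 0.24) and Gm4951 (-3.43 ± 0.34) also fell, and these genes belong to families of near-identical copies whose reads may be split between them. Genes of antigen presentation by MHC class I had small falls: 6 of 20 were lower (30%, beside 10% of all genes) and 0 higher, with a median of -0.30. Among the 6 were the peptide transporter Tap1 (-0.57 ± 0.12), its partner Tapbp (-0.73 ± 0.13) and the non-classical H2-T23 (-0.69 ± 0.16). At 11 of the 20 every Mx1Cre library lay below every CreER library, as was the case at 13.8% of all genes. Of 21 NF-kB and inflammatory genes, 4 were lower, among them Cxcl10, Tnf (-1.15 ± 0.29) and Il6 (-1.71 ± 0.57), and Il1b was higher (2.36 ± 0.74). Both Il6 and Il1b were at low levels, their groups overlapped, and each lost its call when single libraries were left out: Il1b without CreER 1, 2 or 3 or Mx1Cre 4 (1.14 to 2.20), and Il6 without any of the 7 libraries other than CreER 4 (-1.89 to -1.51).

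The contrast was repeated in knockout mice, which share no library with the controls. There 3950 genes were called (28%), 1870 higher (13.3%) and 2080 lower (14.7%) in Mx1Cre. Genes called in both with the same sign numbered 1531, which is 50.1% of the list from controls and 38.8% of the list from knockouts, and 27 were called with opposite signs. Of the interferon-stimulated genes 41 were again lower and 1 higher, with a median of -2.70. Ifit1 had a log2 difference of -5.16 in knockouts beside -4.88 in controls, Irf7 -4.59 beside -4.39, Isg15 -4.28 beside -4.60, and Ly6a -2.05 beside -2.29. The neutrophil granule genes had 17 of 21 higher in knockouts, and the p53 targets 16 of 26 lower. Not every list described below repeated. Of 28 ribosome biogenesis genes, 14 were lower in controls, but 3 were lower and 1 higher in knockouts. Of 13 B cell genes, 7 were higher in controls, but 1 was higher and 1 lower in knockouts. Of 18 heat shock genes, 4 were lower in controls and 1 in knockouts, with 0 called in both with the same sign.

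The progenitors of the same 8 control mice showed the difference too. Of 13692 genes tested there, 3458 were called (25.3%), 1959 were higher (14.3%) and 1499 lower (10.9%) in Mx1Cre. Over the 13478 genes tested in both cell types, 1736 were called with the same sign and 3 with opposite signs. Interferon-stimulated genes had 38 of 43 lower (median -1.96). The S phase genes described below had 3 of 44 lower and 2 higher in progenitors (median -0.04), beside 20 lower in LSK controls. Ifitm1, higher in LSK cells, did not pass in progenitors (0.49, adjusted p = 0.328). The mice are the same, so this is a second cell population and not a second set of animals.

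**Figure D3:**
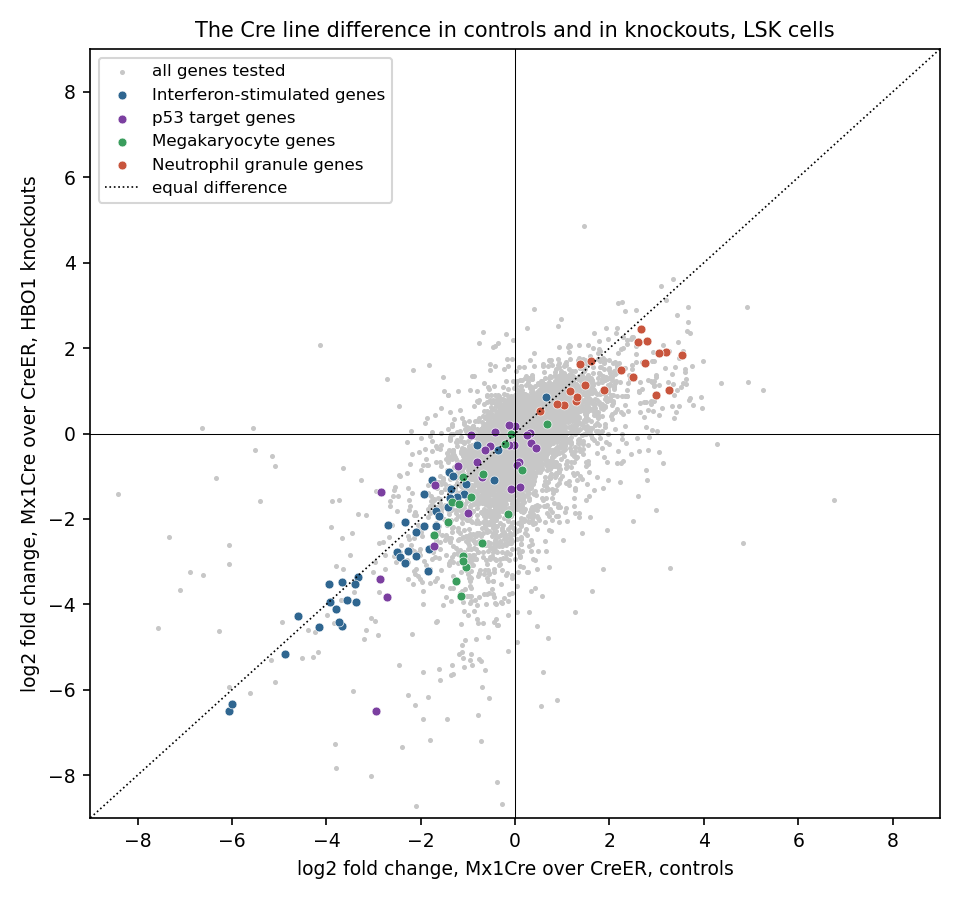
Log2 fold change of Mx1Cre over CreER in LSK cells of controls (x axis) and of HBO1 knockouts (y axis), 1 point per tested gene, with 4 gene lists coloured and a dotted line where both differ equally. Interferon-stimulated genes lie near the line at the lower left, from -6.06 to 0.66 in controls, megakaryocyte genes lie below the line (median -1.07 in controls and -1.77 in knockouts), and neutrophil granule genes lie at the upper right.

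Neutrophil granule genes were higher throughout. All 21 tested members were higher in the Mx1Cre controls, with a median log2 fold change of 2.24, and 20 of them had no overlap between groups. Their summed level was 22560, 23200, 21970 and 21200 CPM in the Mx1Cre controls, against 7101, 5480, 12100 and 7774 CPM in the CreER controls, where library 3 was the highest. Early granule genes carried most of that sum. Elane, neutrophil elastase, had 2954, 2914, 2317 and 2023 CPM in the Mx1Cre controls, against 416, 301, 926 and 515 CPM in the CreER controls (2.24 ± 0.35, adjusted p = 0.000206). Mpo, myeloperoxidase, was higher with a smaller change (1.31 ± 0.22), and Igsf6 (1.89 ± 0.23), Gstm1 (1.49 ± 0.24) and the ficolin gene Fcnb (2.67 ± 0.52) followed.

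Genes of late neutrophil maturation differed by more, and mainly in 2 libraries. S100a8, a subunit of calprotectin, had 117, 88.9, 324 and 454 CPM in the Mx1Cre controls, against 14.1, 13.8, 27.2 and 29.1 CPM in the CreER controls (3.54 ± 0.57, adjusted p = 0.000313). Mmp9, gelatinase B, had 9.26, 10.6, 71.0 and 166 CPM in the Mx1Cre controls, against 10.3, 3.60, 3.83 and 9.04 CPM in the CreER controls (3.26 ± 0.82). The 2 male Mx1Cre libraries were the highest for both, and for Mmp9 the female ones overlapped the CreER controls. In mean log2 CPM, the difference at Mmp9 was 0.90 among females and 3.56 among males, where the CreER side was 1 library. S100a9 (3.19 ± 0.68), the chitinase-like Chil3 (3.05 ± 0.47), lactoferrin Ltf (2.76 ± 0.63) and Retnlg (3.60 ± 0.86) were higher as well. By the same measure Elane was higher in both sexes, by 2.59 among females and 2.07 among males, again with 1 male CreER library.

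Monocyte and macrophage genes rose in 16 of 27 cases (59.3%), fell in 1, and had a median of 0.87. Csf1r, the receptor for macrophage colony-stimulating factor, had 172, 221, 148 and 167 CPM in the Mx1Cre controls, against 38.1, 34.6, 66.0 and 41.7 CPM in the CreER controls (1.97 ± 0.20, adjusted p = 4.11e-06). Irf8, the factor that directs monocyte and dendritic fates, had 517, 524, 405 and 444 CPM in the Mx1Cre controls, against 124, 120.4, 230.4 and 153 CPM in the CreER controls (1.59 ± 0.19). For both, CreER library 3 was the highest of its group and still below all Mx1Cre libraries. F13a1 (1.91 ± 0.26), lysozyme Lyz2 (1.91 ± 0.22), Klf4 (2.06 ± 0.37) and Cd14 (2.10 ± 0.36) were higher. The exception was Maf, at under 2 CPM in every library (-1.17 ± 0.41, adjusted p = 0.0474), whose call was lost on leaving out any 1 of the 8 libraries (-1.32 to -0.93), and the mature macrophage genes C1qa, C1qb and C1qc were not called. Without CreER library 3, 21 neutrophil and 17 monocyte genes were called higher.

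Stem cell transcription factors were called in both directions. Gata2, needed for stem cell maintenance, had 214, 203, 177 and 266 CPM in the Mx1Cre controls, against 485, 509, 433 and 456 CPM in the CreER controls (-1.13 ± 0.15, adjusted p = 5.51e-05). Gfi1b, a repressor that acts in the erythroid and megakaryocyte lineages and in stem cells, fell by 1.33 on the log2 scale. Mecom fell by 1.25, Hlf by 0.86, Meis1 by 0.73 and Tal1 by 0.53. Gfi1, the related repressor that acts in granulocytes, went the other way, with 136, 126, 120.5 and 105 CPM in the Mx1Cre controls, against 56.7, 45.8, 56.1 and 63.0 CPM in the CreER controls (1.14 ± 0.20). Of the 21 factors tested, 8 were lower and 2 higher, but 1 was higher on leaving out any library other than CreER 1, with the replicate number as a block or with sex as a covariate. Hlf lost its call without CreER library 1 or 2 or Mx1Cre library 1 (-0.82 to -0.71).

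Of 22 long-term stem cell markers, 13 were lower (59.1%) and 3 higher, with a median of -0.66. Fhl1 had 2.28, 1.30, 1.09 and 1.43 CPM in the Mx1Cre controls, against 9.04, 10.4, 6.58 and 11.6 CPM in the CreER controls (-2.62 ± 0.26, adjusted p = 2.9e-06). The ion channel gene Trpc6 (-1.67 ± 0.37) and the sialomucin gene Emcn (-1.61 ± 0.37) fell. Slamf1 (CD150), which marks long-term stem cells, was called (-1.07 ± 0.32, adjusted p = 0.0234), but CreER library 3, at 4.62 CPM, lay within the Mx1Cre range of 3.34 to 6.07 CPM, and the call was lost on leaving out any of 6 libraries (CreER 1, 2 and 4, Mx1Cre 2, 3 and 4), at -1.05 to -0.86. Ifitm1, described above, is also on this list and higher. The count of genes lower was 8 without CreER library 1 and 8 without CreER library 2. The count of genes higher was 1 or fewer without any 1 of CreER libraries 1, 2 and 4 and Mx1Cre libraries 2, 3 and 4.

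Megakaryocyte genes fell at 12 of 18 tested (66.7%), with a median of -1.07. Itga2b (CD41) had 182, 148, 135 and 199 CPM in the Mx1Cre controls, against 337, 281, 316 and 334 CPM in the CreER controls (-0.93 ± 0.12, adjusted p = 2.67e-05). The platelet glycoprotein gene Gp5 (-1.43 ± 0.24) and Zfpm1, the cofactor of GATA1 (-1.20 ± 0.16), were lower in every Mx1Cre library. Gata1 had 41.4, 31.0, 15.6 and 26.1 CPM in the Mx1Cre controls, against 75.2, 58.7, 53.8 and 59.5 CPM in the CreER controls (-1.11 ± 0.21). Summed over the list, the level was 691 to 938 CPM in the Mx1Cre controls and 1210 to 1516 CPM in the CreER controls, so the groups did not overlap.

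Erythroid genes were called in both directions, more of them lower: 2 of 27 were higher (7.41%) and 6 lower (22.2%), beside 11.7% and 10% of all genes. Their median was -0.21. The transferrin receptor Tfrc was higher (0.83 ± 0.10) and Hemgn lower (-0.96 ± 0.19). Among mast cell, basophil and eosinophil genes, 4 of 20 were higher and 5 lower. The granule protease Gzmb had 2.88, 1.63, 2.01 and 2.94 CPM in the Mx1Cre controls, against 19.2, 28.6, 21.8 and 15.9 CPM in the CreER controls (-3.16 ± 0.33, adjusted p = 3.95e-06). The mast cell protease Cma1 had 3 counts over the 4 Mx1Cre controls and 190 over the 4 CreER controls, a ratio of CreER to Mx1Cre of 78.4 with a 95% counting interval of 26.4 to 384, which covers counting error only. Eosinophil granule genes went the other way: Epx had 80.0, 58.2, 18.5 and 20.7 CPM in the Mx1Cre controls, against 6.52, 3.89, 11.7 and 0.779 CPM in the CreER controls (2.98 ± 0.73). Prg3 was higher as well (2.80 ± 0.62), and for both the 2 female Mx1Cre libraries were the highest.

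B cell genes were called higher at 7 of 13 tested, and the groups overlapped at 6 of the 7. Igll1, a part of the surrogate light chain, had 10.7, 5.95, 0.836 and 1.23 CPM in the Mx1Cre controls, against 0.229, 0.973, 0.393 and 0.467 CPM in the CreER controls (3.14 ± 0.75). Ebf1, the factor that commits cells to the B lineage, was seen at over 2 CPM in the 2 female Mx1Cre libraries and at under 1 CPM elsewhere (3.72 ± 1.14). Ebf1 lost its call without CreER 1, 2 or 3 or Mx1Cre 1 or 2 (3.17 to 3.65). Without CreER library 1, without Mx1Cre library 1 and without Mx1Cre library 2 the count of B cell genes fell to 1 each time, and to 2 without CreER library 2 or 4. Of 22 multipotent and lymphoid priming genes, 5 were higher (22.7%) and 1 lower (4.55%), beside 11.7% and 10% of all genes, with a median of 0.32. The 1 that was lower was Bcl11a, a factor of lymphoid progenitors (-0.48 ± 0.12).

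Targets of p53, the factor that halts the cell cycle or starts cell death after DNA damage, were lower at 13 of 26 (50%) and higher at 1, with a median of -0.47. Cdkn1a (p21), the cell cycle inhibitor, had 11.2, 11.6, 16.6 and 21.3 CPM in the Mx1Cre controls, against 49.7, 49.2, 46.9 and 51.1 CPM in the CreER controls (-1.70 ± 0.17, adjusted p = 3.34e-06). Phlda3, which restrains AKT, had 2.58, 1.63, 2.51 and 4.79 CPM in the Mx1Cre controls, against 25.6, 21.99, 20.4 and 17.3 CPM in the CreER controls (-2.87 ± 0.26). The CreER values of Cdkn1a lay within 5 CPM of each other, and no library of either gene reached the other group. Zmat3 (-1.72 ± 0.17), cyclin G1 (Ccng1; -0.70 ± 0.09), the nuclease Aen (-0.64 ± 0.09), Plk2 (-2.95 ± 0.41), Gdf15 (-2.84 ± 0.46) and the receptor Eda2r (-2.71 ± 0.39) fell too. Mdm2, which marks p53 for destruction and is itself a target, had 74.1, 75.5, 71.4 and 81.3 CPM in the Mx1Cre controls, against 83.7, 75.6, 69.3 and 78.3 CPM in the CreER controls (-0.02 ± 0.11, adjusted p = 0.913). Rrm2b, a ribonucleotide reductase subunit, was the target called higher (0.44 ± 0.12). In progenitors 15 of 26 targets were lower, with Cdkn1a at -3.12 and Phlda3 at -4.18.

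**Figure D4:**
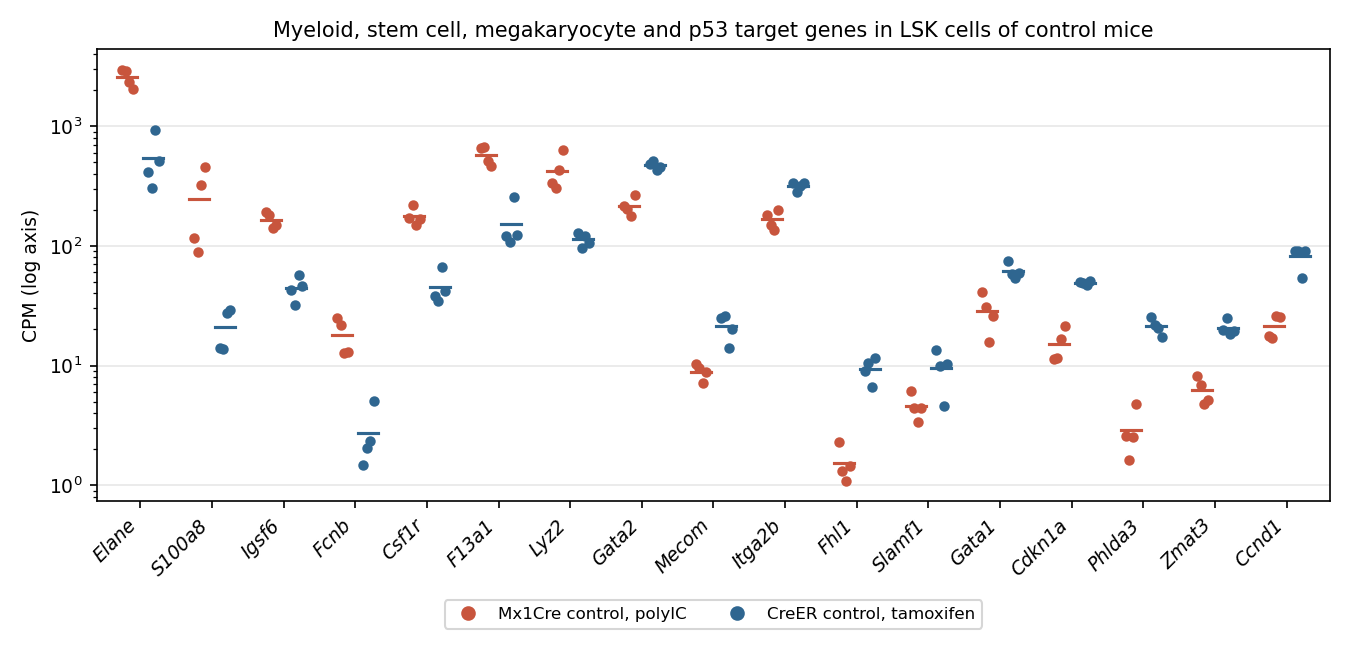
CPM (log axis) of 17 myeloid, stem cell, megakaryocyte and p53 target genes in LSK cells, 4 Mx1Cre controls at the left and 4 CreER controls at the right of each gene; points are libraries and bars are means. The 7 myeloid genes from Elane to Lyz2 are higher in all Mx1Cre libraries, the remaining 10 are lower in mean, and of these only Slamf1 overlaps, where CreER library 3 had 4.62 CPM.

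Cell cycle genes were counted by phase. Of 44 S phase genes 20 were lower (45.5%), with a small median of -0.26, while of 55 G2 and M phase genes 4 were higher and 2 lower. The replication helicase genes Mcm2 (-0.42 ± 0.09), Mcm3 (-0.41 ± 0.08) and Mcm4 (-0.47 ± 0.10) and the histone chaperone subunit Chaf1b (-0.50 ± 0.11) were lower in all Mx1Cre libraries. The count of S phase genes fell to between 9 and 13 on leaving out any of Mx1Cre libraries 1 (13), 2 (9) and 4 (12) or CreER libraries 1 (11) and 3 (12). All 3 D-type cyclins, which drive entry into the cycle, were lower. Ccnd1 had 17.8, 17.0, 25.8 and 25.6 CPM in the Mx1Cre controls, against 90.8, 91.4, 53.4 and 90.2 CPM in the CreER controls (-1.92 ± 0.19, adjusted p = 2.53e-06), with CreER library 3 apart from its group. Ccnd2 fell by 0.94 and Ccnd3 by 0.37 on the log2 scale, and the inhibitor Cdkn1b (p27) was higher (0.43 ± 0.11). Cdkn1a (p21), another inhibitor, was lower, with its values given above. Of 18 tested cyclin and CDK inhibitor genes, 5 were lower (27.8%) and 1 higher (5.56%), beside 10% and 11.7% of all genes.

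Genes of ribosome production and the ribosomal proteins themselves moved in opposite directions. Of 28 ribosome biogenesis and MYC target genes, 14 were lower (50%; median -0.31), among them nucleolin Ncl (-0.59 ± 0.12), Nolc1 (-0.54 ± 0.10) and Rrp12 (-0.56 ± 0.09). Of 43 cytosolic ribosomal protein genes, 18 were higher (41.9%; median 0.43). Rps27 had 13.6, 15.9, 22.1 and 16.1 CPM in the Mx1Cre controls, against 4.58, 5.45, 9.43 and 8.26 CPM in the CreER controls (1.28 ± 0.23), and Rps16 was higher by 1.15 ± 0.23. Ribosomal protein genes are short and have many processed copies in the genome, and the slope of a library's log2 levels on gene length was 0.00895 to 0.0427 in the Mx1Cre controls and -0.0805 to 0.0988 in the CreER controls, where library 3 had the lowest. With that trend removed, 20 ribosomal protein genes were higher and 19 biogenesis genes lower. The biogenesis count was 8 without Mx1Cre library 2 and 9 without CreER library 2.

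Lists of stress and hormone responses had fewer calls, most of them in 1 direction within a list. Of 18 heat shock genes 4 were lower (22.2%, beside 10% of all genes), Hspd1 among them (-0.44 ± 0.12, not called without Mx1Cre library 2 at -0.37). Of 24 unfolded protein response genes 6 were higher (25%, beside 11.7% of all genes) and 1 lower (4.17%), with Xbp1 at 0.61 ± 0.12 and its activator Ern1 at 1.14 ± 0.24. Of 26 cholesterol synthesis genes 6 were lower (23.1%), led by Cyp51 (-0.82 ± 0.17). Of 17 steroid and nuclear receptor genes, a list that bears on tamoxifen, 2 were higher (Vdr at 0.70 ± 0.18, and Rara; 11.8%, beside 11.7% of all genes), and the oestrogen receptor Esr1 was not called (0.37 ± 0.15, adjusted p = 0.09). Esr1 had 20.6 to 23.7 CPM in the Mx1Cre controls, against 14.8 to 19.2 CPM in the CreER controls, without overlap. Immediate early genes were called in both directions, 2 of 20 higher (10%) and 2 lower (10%), beside 11.7% and 10% of all genes. The largest rise on that list was at Klf4, given above, and the largest fall at the growth response gene Egr1. Egr1 was lower (-1.92 ± 0.38) at wide spread, with 3.51 to 14.04 CPM in the Mx1Cre controls against 17.8 to 55.4 CPM in the CreER controls.

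Kat7, the gene of HBO1, was not called. It had 75.7, 75.9, 76.5 and 66.6 CPM in the Mx1Cre controls, against 71.9, 76.1, 55.0 and 72.2 CPM in the CreER controls (0.10 ± 0.13 SE, adjusted p = 0.628). Of the 10 genes of its complexes, the scaffold genes Jade2 (-0.42 ± 0.10) and Jade3 (-0.45 ± 0.15) were lower, and Jade3 lost its call in most alternatives tried, without any library other than CreER 3 among them (-0.49 to -0.37). Nnt, a mitochondrial gene that is disrupted in one C57BL/6 substrain, was expressed in all 8 libraries, at 68.2 to 82.1 CPM in the Mx1Cre controls and 56.3 to 62.1 CPM in the CreER controls (0.34 ± 0.08).

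Outside these lists, the largest rise among well-detected genes was at Fn1, fibronectin, with 51.2, 48.9, 77.5 and 95.8 CPM in the Mx1Cre controls, against 3.78, 1.07, 1.28 and 2.81 CPM in the CreER controls (4.94 ± 0.44, adjusted p = 9.15e-07). Nlrp3, the inflammasome sensor, had 21.8, 23.4, 5.52 and 7.86 CPM in the Mx1Cre controls, against 0.572, 1.17, 1.47 and 1.25 CPM in the CreER controls (3.68 ± 0.46). Fn1 was highest in the male and Nlrp3 in the female Mx1Cre libraries, and neither gene overlapped between groups. Wfdc21 (3.66 ± 0.56), the inhibitory receptor gene Pirb (3.33 ± 0.44) and Lrg1 (3.21 ± 0.53) were also among the largest rises. The lowest p among genes higher in Mx1Cre belonged to Cyth1, an exchange factor for ARF GTPases, with 99.4, 94.1, 91.2 and 90.3 CPM in the Mx1Cre controls, against 52.1, 56.1, 52.0 and 49.6 CPM in the CreER controls (0.84 ± 0.07, adjusted p = 4.44e-07). Il6ra (1.23 ± 0.12) and Soat1 (1.27 ± 0.13) were close behind. Among the falls, the ETS factor gene Etv5 had 9.03, 11.5, 11.7 and 12.7 CPM in the Mx1Cre controls, against 26.8, 36.7, 21.4 and 30.9 CPM in the CreER controls (-1.37 ± 0.15). Its relative Etv4 had 3 counts over the Mx1Cre controls and 132 over the CreER controls, a ratio of CreER to Mx1Cre of 54.5 with a 95% counting interval of 18.2 to 268.

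Where the Cre line difference was itself different between knockouts and controls, the knockouts mostly had the more negative value. The interaction was called at 616 genes (4.37%), negative at 519 (3.68%) and positive at 97 (0.688%). Stem cell and megakaryocyte genes were among the negative ones: the Mx1Cre to CreER difference at Gata1 was -2.98 in knockouts against -1.11 in controls. Ica1, with the lowest p of the interaction, had -2.74 in knockouts against -0.41 in controls (adjusted p of the interaction 9.66e-07), where its own call was lost without Mx1Cre library 4 (-0.34). Ccnd1, Etv5 and Slc6a9 had positive interactions: Ccnd1 differed by -0.36 in knockouts and -1.92 in controls, and Etv5 by -0.01 in knockouts and -1.37 in controls. Fn1 differed by 1.21 in knockouts and 4.94 in controls. Of the interferon genes named above, Gm4951 alone had a called interaction. The count of called interactions ranged from 319 to 2556 on leaving out single libraries, with 319 without Mx1Cre knockout 3 and 2556 without Mx1Cre knockout 2. The balance of directions moved as well. Without Mx1Cre knockout 2, 1519 were negative and 1037 positive, and by DESeq2 862 were negative and 367 positive.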

How the data were processed

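Gene counts of 32 libraries (16 mice, LSK and progenitor cells) were deposited by the authors as whole-number read counts per gene; featureCounts and the mm10 build are named in the submitters' processing notes, and per the labels' protocols libraries were TruSeq, 80 bp paired-end. Strand use in counting is not given in the sources used here, so overlapping and antisense genes cannot be told apart. Of 27179 genes, 1904 without a symbol (3.92% of counts) stayed in the tests and were not named.

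edgeR 4.0.16 (R 4.3.3) was run with TMM and its default filter (minimum count 10) on all 16 LSK libraries as 4 groups, with Benjamini-Hochberg adjustment over 14102 genes and a threshold of 0.05. Progenitors were fitted separately. Replicates are separate mice. Depth was 8503104 to 14389373 counts per control library. In data simulated from these means, with the same spread set for every gene, 77.6% of 67 genes changed 2-fold were called. Of 67 genes changed 1.5-fold, 19.4% were called. That simulation gave 135 calls in all, against 3054 in these data, so its shares are not the sensitivity of this comparison.

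The comparison, the gene lists and the genes named were chosen with earlier results of these data known. The naming rule took the 12 largest changes and 8 lowest p-values per direction, 5 genes per list, the HBO1 complex, the sort genes, and the leading shared and interaction genes. The text names part of these, and the receptors, Stat2, Irf9, Ifitm1, Ly6e, Mdm2 and further list members were added after their values were seen. Alternatives were DESeq2 1.42.0, limma-voom (limma 3.58.1), other filters and scalings, covariates, and leaving out libraries. The replicate numbers were not taken as pairs: same-numbered controls had correlations of -0.0268 to 0.141. Some genes are not reported here.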

Additional observations from a re-analysis of the deposited data

Results flagged for a closer look

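In 284 sets of 4 control libraries of the genes named above, 16 had 1 value far from the other 3, where chance flags about 1 in 20 sets. CreER library 3 accounts for 5 of them: it was the highest of its group for F13a1 (258 CPM), Ncl (2890 CPM), Hspd1 (457 CPM) and Il6ra (56.6 CPM) and the lowest for Ccnd1 (53.4 CPM). Among other CreER controls, library 4 was lowest for Cd34 (692 CPM) and highest for Il1b (2.1 CPM), library 2 was lowest for Mx2 (15.6 CPM), and library 1 was highest for Tnf (8.7 CPM). Among Mx1Cre controls, library 4 was highest for Ptprc (309 CPM) and Nlrp12 (6.63 CPM) and lowest for Kat7 (66.6 CPM), library 3 was highest for Rps16 (102 CPM) and lowest for Dhx58 (18.6 CPM), library 2 was highest for Il6ra (120 CPM) and library 1 for Ifit3 (1.29 CPM).

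For 28 of the 142 named genes the Mx1Cre to CreER difference in knockouts was itself different from that in controls by the interaction test of edgeR. Over all 14102 genes tested, 616 (4.37%) were called. Some of the 28 were named for their low p in that test, so the 2 shares cannot be compared. The values that follow are log2, the difference in knockouts minus that in controls. Stem cell, megakaryocyte and erythroid genes had negative values, with Slamf1 at -2.59, Trpc6 at -2.74, Gata1 at -1.86, Gfi1b at -1.57 and Mecom at -1.44, and Bcl11a, a factor of lymphoid progenitors, had -0.62. The p53 targets Plk2 (-3.54), Zmat3 (-0.93) and Rrm2b (-0.78) were more negative in knockouts too. Myeloid and inflammatory genes had Fn1 at -3.73, Nlrp3 at -2.9, Irf8 at -1.05, Il6ra at -0.86, Vdr at -0.98 and Cyth1 at -0.56. Genes of eosinophils and mast cells had Epx at -4.78, Prg3 at -3.9 and Il1rl1 at -1.57. Il7r had -2.84, Gm4951 -2.6, Ica1 -2.33, Marcks -3.33 and Adcy6 -2.99. Positive values were found at Etv4 (5.12), Slc6a9 (2.26), Ccnd1 (1.56), Etv5 (1.36) and Rrp12 (0.49).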

How the results depend on the processing

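Of 2697 values of 142 named genes under the alternatives, 2555 kept their direction and side of the threshold, 124 lost the call, 16 gained one and 2 reversed, both of the uncalled Mdm2 (log2 0.027 without CreER control 1 and 0.01 without Mx1Cre control 3, in a range from -0.068 to 0.027). In a test against a fold of 1.5, calls numbered 579 in controls, 982 in knockouts, 193 for the interaction, 262 shared and 981 in progenitors. By list that test left 1 B cell, 1 ribosomal protein, 3 stem cell factor, 4 long-term marker, 5 megakaryocyte, 10 monocyte, 7 p53, 0 ribosome biogenesis and 0 S phase genes. B cell genes numbered 2 by limma-voom and 4 with only the compared groups fitted, which gave 2297 calls in progenitors. The interaction gave 1229 calls by DESeq2 and 310 without the 2 CreER knockouts whose sex-linked genes went against their labels. Leaving out 1 library at a time gave 2107 to 2990 calls in controls, 2855 to 5171 in knockouts, 319 to 2556 for the interaction, 1135 to 1741 shared and 2316 to 3753 in progenitors. By list it gave 40 to 42 interferon-stimulated, 10 to 12 GTPase, 21 to 21 neutrophil, 14 to 17 monocyte, 9 to 11 megakaryocyte, 8 to 12 long-term marker, 6 to 8 stem cell factor, 11 to 14 p53, 9 to 19 S phase, 8 to 13 ribosome biogenesis, 12 to 27 ribosomal protein and 1 to 8 B cell genes. Causes were not tested. With the replicate number as a block, 2939 genes were called in controls (1617 higher, 1322 lower), 3798 in knockouts and 538 for the interaction. Of the named genes Ly6g and Maf lost their calls with the block. Genes of few counts, such as Etv4 and Cma1, are limited by depth.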
